A study of Homo sapiens with 4 samples.

Results

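The genes described here are the 2′-5′-oligoadenylate synthetase family, OAS1, OAS2, OAS3 and OASL, and the GTPases MX1 and MX2. They are 6 of the 19740 genes with a named probe set on the arrays. A probe set counted as a member if the platform annotation gave it one of these genes as its only symbol. This gave 11 probe sets, and all of them are shown. OAS2 had 3, OAS1, OAS3 and OASL had 2 each, and MX1 and MX2 had 1 each.

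OAS1, OAS2 and OAS3 bind double-stranded RNA and join ATP into short 2′-5′-linked adenylate chains. Those chains act as messengers of the antiviral response. OASL has the same fold but lacks the synthetase activity, carries ubiquitin-like domains and aids signalling by the RNA sensor RIG-I. MX1 and MX2 are dynamin-like GTPases that trap incoming viral nucleoprotein complexes or capsids. All of them are textbook interferon-stimulated genes, switched on when the transcription factor ISGF3 binds an interferon-stimulated response element in their promoters, and OASL can also be switched on by IRF3 without interferon. In the RefSeq gene table OAS1, OAS3 and OAS2 lie side by side on chromosome 12, OASL lies apart from them on chromosome 12, and MX2 and MX1 are neighbours on chromosome 21.

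CL1-0 is a human line of lung adenocarcinoma, and CL1-5 is a more invasive subline of it. PSAT1 is the transaminase of serine synthesis. The 4 groups were CL1-0 with a control vector, CL1-0 with a PSAT1 expression vector, CL1-5 with a non-silencing short hairpin RNA vector and CL1-5 with a hairpin vector against PSAT1, with 1 array each. All the cells, controls included, were stably transduced and kept in puromycin for 2 weeks, and the labels do not say whether a culture was 1 clone or a pool. With no replicates there is no error on any value and no test. A difference is called higher or lower, or said to rise or fall, only if it reached 2-fold between 2 arrays, which is a rule of size. Values are linear MAS5 signals, and 49.0, the median over all arrays, served as a floor. A gene at the floor on both arrays of a comparison was not measured in it, and with 1 array at the floor the fold is a lower bound, written "at least".

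The hairpin array of CL1-5 read 143 and 107 at the 2 PSAT1 probe sets, against 1760 and 384 on its control array. The PSAT1 vector array of CL1-0 read 5494 and 1617 against 4214 and 1509, so that array differed from its control by less than 2-fold at both probe sets. Between 48.0% and 52.0% of all probe sets, and between 63.1% and 65.4% of all genes, were above the floor on each array. The cells are labelled as alveolar type II. Of 8 marker genes of that type with a named probe set, 6 were above the floor on every array, not far from the share over all genes. NAPSA, at 62.3 to 67.9, and NKX2-1, at 63.1 to 90.5, lay close to the floor, and SFTPD and SLC34A2 were below it on all 4. Of 6 epithelial markers, the keratins KRT7, KRT8 and KRT18 were above the floor on every array, and EPCAM, CDH1 and KRT19 were below it on all 4. KRT8 read 77.8 and 60.4 in the CL1-0 pair and 1271 and 1675 in the CL1-5 pair, and KRT18 read 757, 635, 5308 and 5657 in the same order, so both were higher in the CL1-5 control than in the CL1-0 control. All 4 leukocyte markers with a named probe set were below the floor on all 4 arrays.

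OASL behaved unlike the other members. It was bright in CL1-0 with vector and nearly vanished in CL1-0 with PSAT1, while the other synthetases and both MX genes were at or close to the floor on both CL1-0 arrays. In CL1-5 all 6 genes were brighter on the PSAT1 hairpin array than on the non-silencing array, and 4 of them, MX1, OAS2, OAS1 and MX2, reached 2-fold. OAS1, OAS2, OAS3, MX1 and MX2 had their brightest array in CL1-5 with the hairpin, and OASL had its brightest in CL1-0 with vector. Over all 14067 genes above the floor on an array, 11.8% were brightest on the first of these arrays and 38.9% on the second. In RNA from whole cultures, fewer cells expressing a gene and less RNA per cell cannot be told apart.

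**Figure D1:**
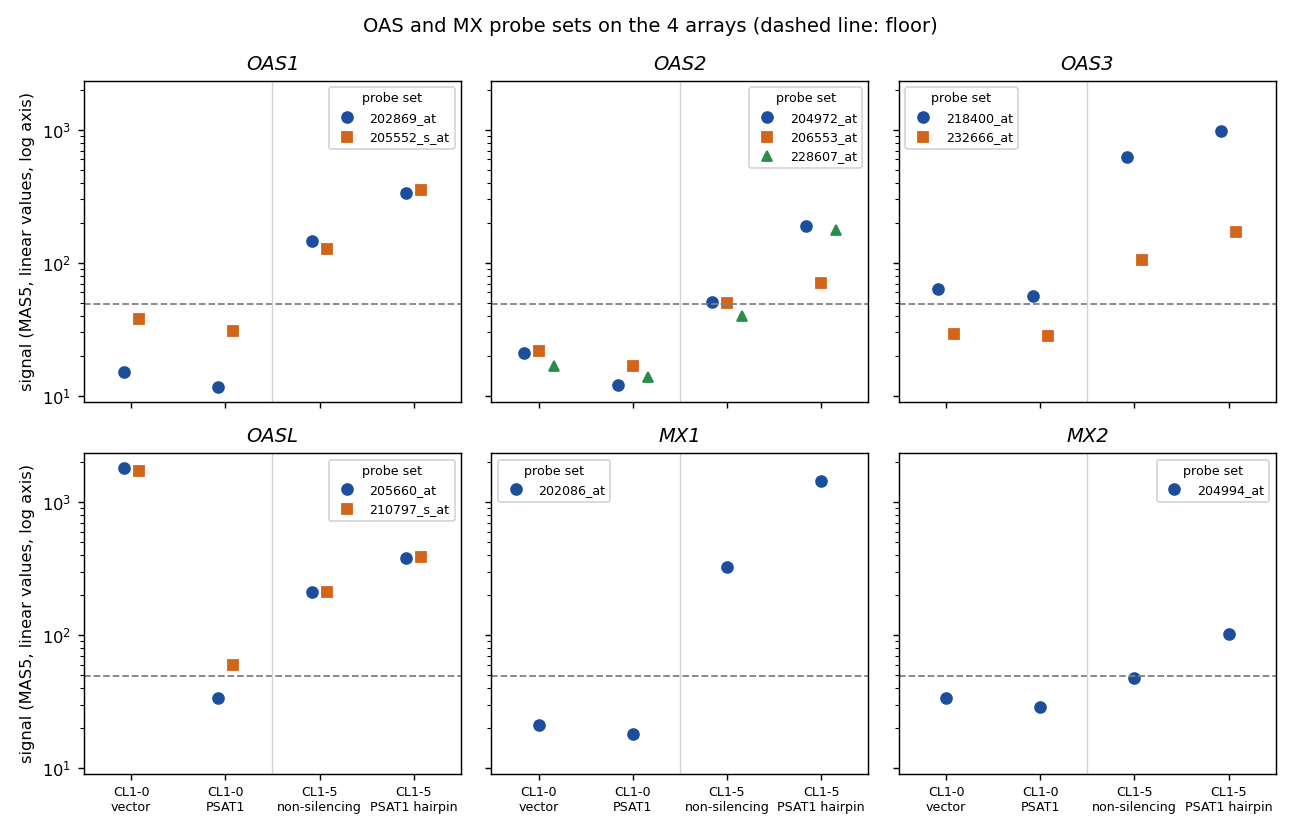
Signal of each of the 11 OAS and MX probe sets on the 4 arrays, 1 panel per gene, on a log axis, with the floor of 49.0 as a dashed line and 1 point per probe set and array. OASL is brightest with vector in CL1-0, at 1811 and 1718, and the other 5 genes are brightest with the hairpin in CL1-5, MX1 reaching 1452.

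Promoter sequence was available in the reference table for OAS1, OAS3 and MX1. OAS1 and MX1 rose with the hairpin in CL1-5, and OAS3 had positive ratios under 2-fold. The sequence is shown so that the letters of the interferon response element can be seen. Each sequence below except the last is the 250 bases before a RefSeq transcript start in GRCh38.p14. The last is the first 30 bases transcribed from the most upstream MX1 start. All are read 5′ to 3′ on the plus strand, which is the coding strand of all 3 genes. The bases before the most upstream and the most downstream MX1 starts are not shown. Capitals mark matches to GAAANNGAAA, the core of the interferon-stimulated response element, and to GAAANGAAA, the same blocks with 1 base between them, on either strand.
OAS1 chr12:112906712-112906961: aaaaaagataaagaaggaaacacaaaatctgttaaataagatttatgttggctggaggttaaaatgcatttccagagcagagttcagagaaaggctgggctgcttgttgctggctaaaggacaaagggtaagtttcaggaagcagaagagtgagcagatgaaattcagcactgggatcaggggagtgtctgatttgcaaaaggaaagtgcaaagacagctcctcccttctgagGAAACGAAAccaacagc
OAS3 chr12:112938224-112938473: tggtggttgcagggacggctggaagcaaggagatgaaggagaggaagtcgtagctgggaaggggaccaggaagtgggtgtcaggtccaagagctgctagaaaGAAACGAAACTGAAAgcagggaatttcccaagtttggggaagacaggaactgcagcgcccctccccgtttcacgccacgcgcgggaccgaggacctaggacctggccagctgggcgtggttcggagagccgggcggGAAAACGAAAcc
MX1, middle of 3 starts, chr21:41425989-41426238: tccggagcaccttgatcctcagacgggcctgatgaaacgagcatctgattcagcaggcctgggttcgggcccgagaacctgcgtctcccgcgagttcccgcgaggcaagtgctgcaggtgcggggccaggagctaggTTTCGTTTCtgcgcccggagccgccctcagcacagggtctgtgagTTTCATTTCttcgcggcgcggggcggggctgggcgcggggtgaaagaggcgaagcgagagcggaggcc
MX1, most upstream start, first 30 bases transcribed: cgagcaGAAATGAAACCGAAActgaattgt

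The OAS1 window had 1 match, with the shorter spacing, ending 9 bases before the start. In OAS3 a run of 3 blocks held both spacings, from 148 to 134 bases before the start, and another core match lay from 12 to 3 bases before it. The MX1 windows differed from one another. The most upstream start had a core match after the start, at bases 12 to 21, which overlaps a match of the shorter spacing at bases 7 to 15, and another match of the shorter spacing from 19 to 11 bases before the start. The middle start had only the shorter spacing, at 2 places on the reverse strand, and the most downstream start had 1 core match, TTTCTCTTTC, on the reverse strand 196 to 187 bases before it. A GAS motif, TTCNNNGAA, matched in OAS1 from 168 to 160 bases before the start and at the most downstream MX1 start, where it overlaps the core match. Of all 35116 promoter windows of 300 bases (250 before and 50 after a start), 3.57% held the core motif, 3.12% the shorter spacing and 7.66% the GAS motif. The shorter spacing was added after the windows had been read. A match is a description of the letters, and binding was not measured.

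**Figure D2:**
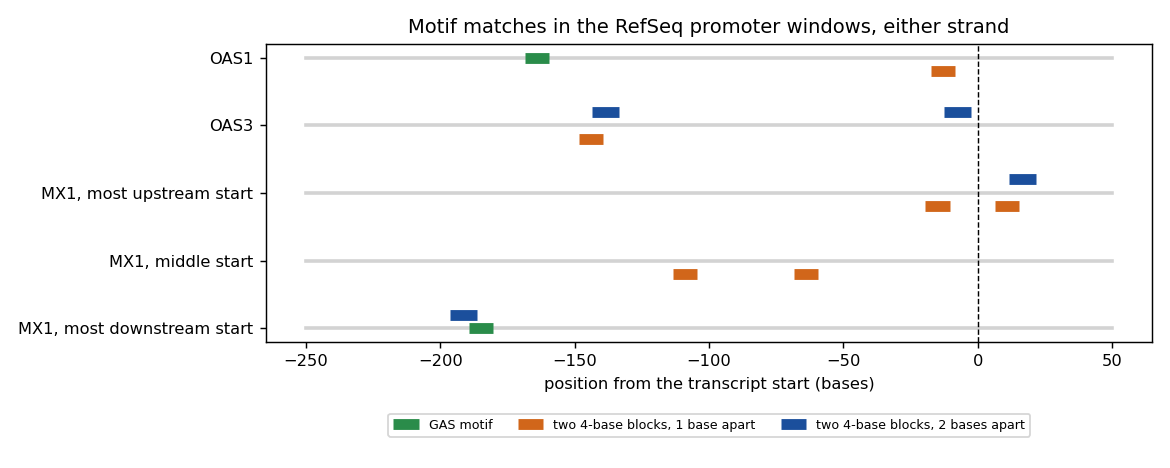
Positions of motif matches relative to the transcript start in the RefSeq windows of OAS1, OAS3 and the 3 starts of MX1, from 250 bases before to 50 bases after the start, with 1 bar per match on either strand. OAS3 has 2 core matches, and in OAS1 the match of the shorter spacing ends 9 bases before the start.

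OAS1, the synthetase that makes short chains, was below the floor on both CL1-0 arrays. Its first probe set (202869_at) read 15.1 with vector and 11.7 with PSAT1 in CL1-0, and 146 with the non-silencing hairpin and 335 with the PSAT1 hairpin in CL1-5. Its second (205552_s_at) read 38.1, 30.9, 128 and 351 in the same order. The probe sets gave the same order of arrays. In CL1-5 OAS1 was 2.30-fold higher with the PSAT1 hairpin by the first and 2.75-fold by the second. Between the control arrays it was higher in CL1-5 than in CL1-0 by at least 2.97-fold and at least 2.61-fold.

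OAS2, the dimeric synthetase encoded next to OAS3, sat at the edge of the floor in control CL1-5 cells and clearly above it with the PSAT1 hairpin. The probe set 204972_at read 21.1 and 12.2 in CL1-0, with vector and PSAT1 in turn, and 50.5 and 191 in CL1-5, with non-silencing and PSAT1 hairpin in turn. The probe set 228607_at read 16.8, 13.9, 40.2 and 178. Both CL1-5 differences were past 2-fold, 3.78-fold by the first and at least 3.63-fold by the second. The third, 206553_at, disagreed in size, with 50.2 and 71.2 in CL1-5, 1.42-fold, and 21.7 and 16.7 in CL1-0. It was designed on another transcript record of the gene than the first. The rise of OAS2 thus rested on 2 of its 3 probe sets.

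OAS3, the largest synthetase, with 3 copies of the OAS domain, was the only one of the 3 active synthetases above the floor in CL1-0. The probe set 218400_at read 63.6 with vector and 56.7 with PSAT1 in CL1-0, a log2 ratio of -0.17, and 622 and 983 in CL1-5. The probe set 232666_at was below the floor in CL1-0, at 29.1 and 28.4, and read 106 and 171 in CL1-5. Neither CL1-5 difference reached 2-fold, at 1.58-fold and 1.62-fold. Most of the spread of OAS3 lay between the lines, since its control array in CL1-5 was 9.78-fold above that in CL1-0 by the first probe set and at least 2.16-fold by the second.

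OASL, the member without synthetase activity, had the largest difference within a line among the members. Its probe set 205660_at read 1811 with vector and 33.9 with PSAT1 in CL1-0, and 211 and 377 in CL1-5. The probe set 210797_s_at read 1718, 60.1, 212 and 388 in the same order. Both probe sets gave the same order of arrays, and on the CL1-0 PSAT1 array the first was below the floor and the second above it. OASL was lower with PSAT1 in CL1-0, 28.6-fold by 210797_s_at and at least 37.0-fold by 205660_at. Of 6 fibroblast markers, COL3A1 also differed on these arrays, at 312 with vector and 27.4 with PSAT1. COL1A1 read 258 and 221, under 2-fold, and COL1A2, PDGFRA, DCN and LUM were below the floor on both. With COL3A1, 2 of the 6 were above the floor with vector and 1 with PSAT1, and the summed signal was 649 and 323. Any part of these markers in the fall of OASL was not tested. In CL1-5 the differences between hairpin and control were 1.83-fold and 1.79-fold, under the 2-fold rule. Between the control arrays OASL was lower in CL1-5 than in CL1-0, by 8.10-fold and 8.60-fold.

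MX1, the GTPase active against influenza virus and other viruses, was below the floor in CL1-0 and above it in CL1-5. It read 21.3 with vector and 17.9 with PSAT1 in CL1-0, 325 in control CL1-5 cells and 1452 with the PSAT1 hairpin. The rise in CL1-5 was 4.47-fold. Ranked on floored values, with bounds taken at the bound, it was the 2nd largest among 12821 measured genes. OAS2 had the 3rd largest, by 204972_at, which read 50.5 on the control array, just above the floor. Another OAS2 probe set, 206553_at, gave 1.42-fold. For MX1, control CL1-5 cells were at least 6.63-fold above control CL1-0 cells. MX2, the paralogue that restricts lentiviral capsids, was dim throughout. It read 33.5 and 29.0 in CL1-0 and 47.3 and 101 in CL1-5. Only the hairpin array was above the floor, so that its rise of at least 2.06-fold lies next to the 2-fold limit. Levels of different probe sets do not compare as amounts of RNA, so MX1 and MX2 are not ranked against each other.

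In CL1-0, PSAT1 over vector, 2 of the 6 genes were measured, and OASL was the 1 member lower and none was higher. Over all 13187 measured genes 1.01% were lower and 2.56% higher. By probe sets, 3 of 11 were measured and both OASL probe sets were lower, against 0.936% lower and 2.54% higher among all measured probe sets. The 8 member probe sets below the floor on both arrays all read lower with PSAT1, by 1.02-fold to 1.73-fold, but so did 65.5% of all 16247 probe sets that were below it on both, and such readings are not measurements of a change.

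In CL1-5, hairpin over non-silencing, all 6 genes were measured, 4 were higher and 0 lower. Over all 12821 measured genes 0.398% were higher and 0.421% lower. By probe sets 6 of 11 were higher and 0 lower, against 0.324% and 0.432% of all. The median log2 ratio of the 6 genes was 1.12, with a range from 0.66 for OAS3 to 2.16 for MX1, beside 0.02 over all measured genes. All 11 probe sets had positive ratios, but 2 were above the floor only with the hairpin, 228607_at of OAS2 and the MX2 probe set. Those 2 could not come out lower, and MX2 enters the gene counts and the median at its bound. The SD of log2 ratios between probe sets of a gene was 0.18 over all genes of this pair, and it does not replace a replicate. With the floor at the 65th percentile MX1 and OAS1 were the 2 genes that stayed past 2-fold, since OAS2 came to a bound of 0.91 on the log2 scale and MX2 was not measured.

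**Figure D3:**
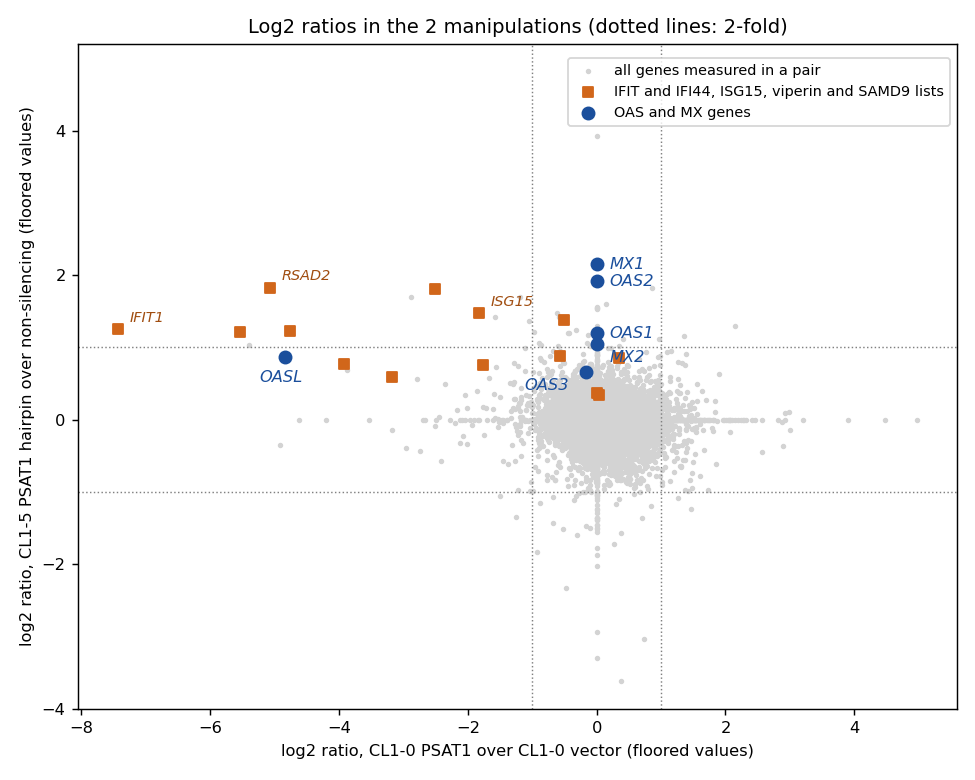
Log2 ratio of each gene in CL1-0 (PSAT1 over vector, horizontal) and in CL1-5 (PSAT1 hairpin over non-silencing, vertical) on floored values, for all genes measured in either pair in grey, with the OAS and MX genes as blue points and related interferon genes as orange squares; a gene at the floor on both arrays of a pair lies at 0 on that axis. OASL lies far to the left at -4.84, whereas MX1, OAS2, OAS1 and MX2 lie at 0 on the horizontal axis and between 1.05 and 2.16 on the vertical one.

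Between the control arrays, CL1-5 non-silencing over CL1-0 vector, OAS3, MX1 and OAS1 were higher in CL1-5 and OASL was lower. OAS2 was measured at 1.03-fold or more, and MX2 was not measured. This made 3 higher and 1 lower of 5 measured genes, against 5.25% higher and 24.8% lower over all 13720. By probe sets 5 were higher and 2 lower of 9 measured, against 4.81% and 23.4% of all. Among those measured, 3 genes and 6 probe sets were above the floor only in CL1-5, so they could not come out lower. That comparison shares its control arrays with the other comparisons, and it covers the line and the kind of vector together, which cannot be told apart. The deposited values also differ in scale between the lines, with a median log2 ratio of -0.49 over all measured genes, so that 17.5% of all calls were rises as deposited, 51.8% under quantile normalization and 54.6% under median centring. Relative to that median the log2 ratios were 3.78 for OAS3, at least 3.22 for MX1, at least 2.06 for OAS1 and -2.53 for OASL. Under quantile normalization the same values relative to the median were 3.77, 3.05, 1.82 and -2.35, and under median centring 3.81, 2.93, 1.77 and -2.58, with MX1 and OAS1 again as bounds. The directions of these 4 genes held under both.

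The genes that make, sense or use the same signals were taken from lists. For their counts, the shares over all measured genes are 1.01% lower and 2.56% higher in CL1-0. In CL1-5 they are 0.398% higher and 0.421% lower. Of the genes linked to the handling of the adenylate chains, 5 were measured and 0 reached 2-fold in either manipulation. ABCE1, a ribosome-recycling protein, read 3002 with vector and 2273 with PSAT1, and 1855 and 2299 in the CL1-5 pair. PDE12, which degrades the chains, read 3116, 2354, 910 and 875 in the order of the arrays. AKAP7, ENPP1 and CNP had log2 ratios between -0.31 and 0.27 in CL1-0 and between -0.29 and 0.31 in CL1-5.

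Sensors of double-stranded RNA, which share the ligand of the synthetases, had 3 lower of 10 measured genes in CL1-0 with PSAT1. They had 1 higher of 9 in CL1-5 with the hairpin. Among all measured genes 1.01% were lower in the first pair and 0.398% higher in the second. In CL1-0 the helicase RIGI read 72.1 against 1057 with vector, 14.7-fold lower, IFIH1 (MDA5) was at least 7.41-fold lower and DDX60 at least 2.16-fold. IFIH1 was the 1 riser in CL1-5, with 403 against 124. RIGI and DDX60 read 813 against 504 and 143 against 89.1 there, under 2-fold. The kinase EIF2AK2 (PKR) had log2 ratios of 0.48 and 0.15 in CL1-0 and CL1-5, the editing enzyme ADAR -0.06 and 0.12, the adaptor MAVS 0.48 and -0.07, DHX58 -0.93 and 0.27, PRKRA -0.40 and 0.30 and STAU1 0.15 and 0.03. ZBP1 was above the floor on 1 array, at 49.7 in CL1-0 with vector, and TLR3 on none. The median log2 ratios of the list were -0.23 and 0.27.

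Relatives of the OAS fold included CGAS, the DNA sensor that makes cyclic GMP-AMP. It read 453 with vector and 251 with PSAT1 in CL1-0 and 164 and 178 in CL1-5, under 2-fold in both pairs. STING1, put in the list as the receptor of that messenger and not as a relative of the fold, was below the floor in CL1-0. It read 228 and 179 in CL1-5. TENT5A had at least 1.52-fold less signal with PSAT1 in CL1-0 and 1.85-fold more with the hairpin in CL1-5, and PAPOLA, the nuclear poly(A) polymerase, had log2 ratios of -0.05 and 0.06. None of this list reached 2-fold in a manipulation.

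Among interferon receptors and the factors that switch the members on, 1 gene reached 2-fold within a line. IRF9, the DNA-binding subunit of ISGF3, read 272 with vector, 238 with PSAT1, 839 with the non-silencing hairpin and 1209 with the PSAT1 hairpin. IRF7, which amplifies the interferon response, read 116, 103, 311 and 392 in the same order. Both were thus higher in control CL1-5 than in control CL1-0 cells, 3.08-fold and 2.68-fold, and neither reached 2-fold within a line. USP18, which dampens interferon receptor signalling, was 2.60-fold higher with the hairpin in CL1-5 and was the only one of 11 measured genes of this list past 2-fold there, with none of 10 in CL1-0. Of 8 interferon genes with a named probe set, IFNB1 was the 1 above the floor on any array, at 81.9 in CL1-0 with vector against 15.0 with PSAT1, at least 1.67-fold, and it read 15.0 and 14.6 in CL1-5.

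Other GTPases of the dynamin family had 0 of 7 measured genes past 2-fold in CL1-5, and their median log2 ratio there was 0.01. In CL1-0 the 1 change among 8 was DNM1, a dynamin of synaptic vesicle recycling, with 231 against 98.2, a rise whose sign depended on the probe set. Of the guanylate-binding GTPases, 2 of 5 were measured in CL1-5, with GBP3 at 119 against 165 and GBP1 at 67.2 against 42.2, and none in the CL1-0 pair. Of 5 measured cofactors and targets of the MX proteins 0 reached 2-fold in either manipulation, with CPSF6 at -0.53 and 0.14 on the log2 scale.

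**Figure D4:**
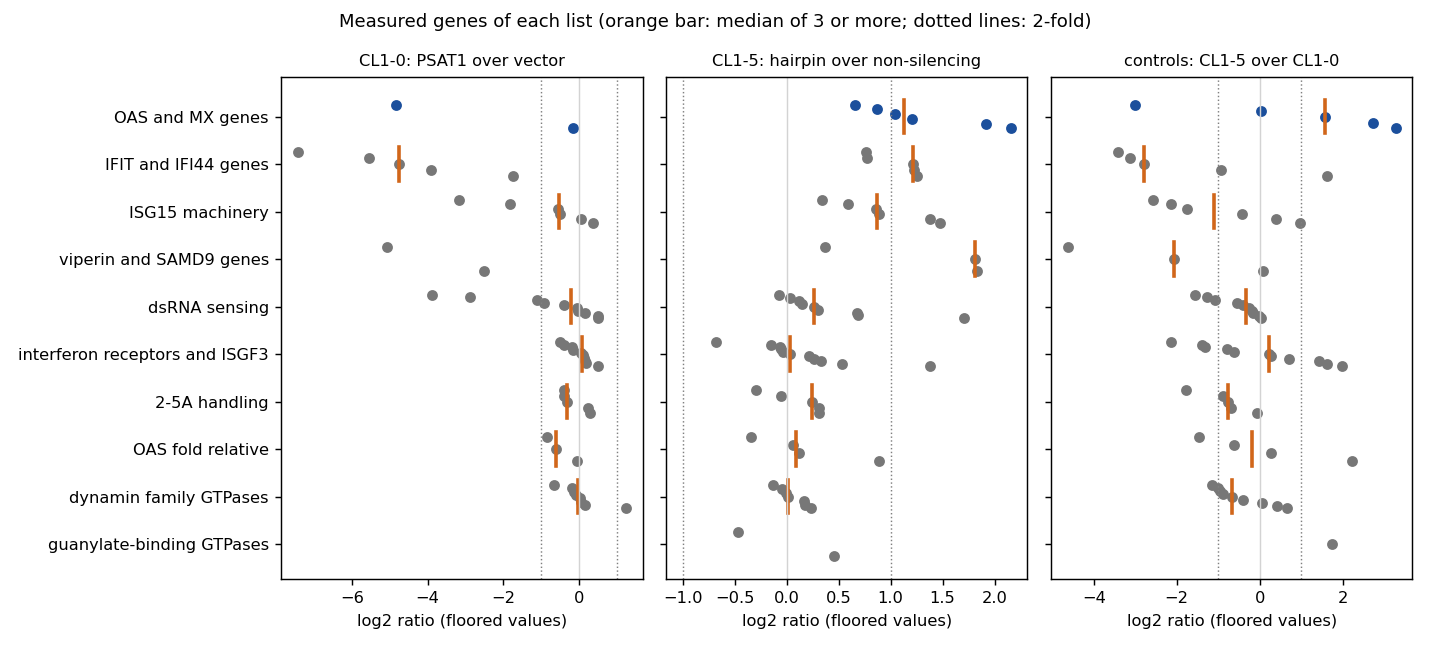
Log2 ratios of the measured genes of each list in the 3 comparisons, on floored values, with 1 point per gene, the median of lists of 3 or more as an orange bar and 2-fold as dotted lines. In CL1-5 the OAS and MX genes (blue) lie between 0.66 and 2.16, while the dynamin family genes lie near 0, with a median of 0.01.

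The members were set beside other interferon-stimulated genes. The IFIT and IFI44, ISG15 and viperin and SAMD9 lists together had 16 genes with a named probe set. Of these, 13 were above the floor in CL1-0 with vector and 8 with PSAT1, against 2 of the 6 OAS and MX genes on both arrays. Over all genes 65.4% were above it with vector and 63.8% with PSAT1. In CL1-0 9 of the 13 measured genes were lower with PSAT1 and 0 higher, against 1.01% and 2.56% of all measured genes. Their median log2 ratio was -2.51. IFIT1 was at least 172-fold lower, IFIT2 at least 46.4-fold, RSAD2 at least 33.4-fold and HERC5, the ISG15 ligase, 9.06-fold. In CL1-5 7 of 14 were higher and 0 lower, against 0.398% and 0.421% of all measured genes. Their median was 1.05, beside 1.12 for the members. RSAD2 and CMPK2, neighbouring antiviral genes, were 3.55-fold and 3.52-fold higher, ISG15 2.78-fold and IFIT1 2.39-fold. Of the 14 genes above the floor on an array, 8 were brightest in CL1-0 with vector, where OASL was the only one of the 6 members. That array was the brightest for 38.9% of all genes above the floor on an array. With 1 array per group none of these differences between lists was tested.

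The genes whose levels over the 4 arrays lay closest to each member were found by Euclidean distance of floored log2 values centred on their mean, among genes whose brightest array reached 213, the 75th percentile. Closest to OASL were the chemokine CCL5, with 2055 and 25.2 in CL1-0 and 159 and 326 in CL1-5 (distance 0.51), IFIT2 (0.94) and IFI44 (1.13). OASL was more distant from each of the other members, between 3.49 from MX2 and 5.32 from MX1, than these were from one another, between 0.78 and 3.38. Closest to MX1 were the immunoproteasome subunit PSMB8, with 31.8, 20.9, 365 and 1058 on the 4 arrays (0.46), and the cancer-testis genes MAGEB2 (0.70) and MAGEA11 (0.82). Closest to OAS1 were LINC01806 (0.24), PARP9 (0.32) and TCEAL2 (0.34), and to OAS2 PSMB9 (0.66), H2BC5 (0.71) and IGFBP6 (0.72). OAS3, whose spread lay mostly between the lines, had GPRC5A (0.16), BEX5 (0.17) and CDC42EP3 (0.22) as its nearest genes. MX2 had HLA-C (0.22), HLA-B (0.24) and MAD1L1 (0.29). The mean of the 6 members pools OASL with genes that it lay far from, and need not resemble any member. Closest to that mean were HERC6 (0.38), PLSCR1 (0.44), H2BC5 (0.54), ZNF542P (0.61), IFITM1 (0.62), LHFPL6 (0.62), MTARC1 (0.64), SFN (0.67), TNFAIP3 (0.68) and FAM241A (0.69). These are distances over 4 arrays that share 2 lines, and they describe the arrays only.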

How the data were processed

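Deposited values were linear probe set intensity, 1 per probe set and array, which the authors made with MAS5, per the submitters' processing notes. The MAS5 version and its scaling target are not given in the sources used here. Of 54675 probe sets, 62 were controls. The platform annotation gave 1 symbol to 41097, updated through the RefSeq gene table, and 59 for Y-linked or X-inactivation genes were left out. Values were set to a floor of 49.0, the pooled median, and log2 transformed (Python 3.11.15, pandas 2.3.3). Each gene took the values of whichever of its probe sets had the highest mean. With 1 array per group no test was run, and the number of arrays limits the precision. The steps were tested on simulated data, with changes placed only in genes well above the floor on every array. Recovery of changes near the floor, and of bounds, was not covered. The members and lists were chosen with earlier results of these data known. Named were all members, PSAT1, all measured genes of 3 lists (adenylate chain handling, double-stranded RNA sensing, relatives of the OAS fold), genes of other lists past 2-fold in a manipulation, up to 4 per list, with IRF9 and IRF7, and the nearest genes by distance. Other list genes were named after their values were seen. Of 112 list genes, 11 were not analysed here, lacking a named probe set. There were 7 alternatives.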

Additional observations from a re-analysis of the deposited data

How the results depend on the processing

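The alternatives were 2 scalings, 3 other treatments of the floor, the mean over probe sets and the omission of probe sets that may match several transcripts (names ending in _s_at or _x_at). The counts of member genes kept within 1.5 times the reported count in each comparison under all 7, except that 2 rather than 4 genes were higher with the hairpin in CL1-5 with the floor at the 65th percentile, where 3 rather than 6 probe sets were. Between the control arrays 8 member probe sets were higher with the floor at the 25th percentile and with no floor, and 2 with the floor at the 65th, against 5. No log2 ratio of a member changed sign. In CL1-0 OASL had -4.16 or lower with the 65th percentile floor. Without multi-transcript probe sets it had -5.21 or lower, the value of 205660_at. In CL1-5 OAS1 had 1.46, the value of its probe set 205552_s_at, with the lower floor and with none. OAS2 had 2.11 under quantile normalization, at least 0.91 with the 65th percentile floor and 1.43 as a mean over probe sets. Between the control arrays, with the lower floor and with none, OAS2 had 1.26 and MX1 3.93. With the 65th percentile floor OAS1 had at least 0.52, MX1 at least 1.68 and OAS3 at least 2.62. OAS3 had 3.91 under median centring and 2.20 with the mean over probe sets, and OASL -2.35 under quantile normalization. Over all genes of the pathway lists, rises in CL1-0 went from 1 to 0 with the mean over probe sets and without multi-transcript probe sets, where DNM1 turned to -0.31, and falls in CL1-5 from 0 to 1 with the lower floor and with none. Between the control arrays pathway genes gave 10 rises and 11 falls under quantile normalization and 10 and 9 under median centring, against 6 and 19. No paired analysis was possible because each group has 1 array and the labels give no replicate numbers. The signal of members near the floor (OAS2, MX2, and OAS1 and MX1 in CL1-0) limits their folds to bounds. OASL with PSAT1 and OAS3 in CL1-0 also gave bounds under some of the alternatives. Apart from bounds and changes of probe set, the cause of the shifts was not tested.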
